A study of Mus musculus with 2 samples.

Results

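The variable segments of the alpha-beta T cell receptor were the 163 of 32285 gene rows whose symbols start with Trav or Trbv. They comprise 128 Trav rows in 23 numbered subgroups and 35 Trbv rows. Each was read as raw UMI counts (one count per captured mRNA molecule) in spleen barcodes that held at least 2 UMIs of Cd3d and Cd3e together and no UMI of Cd79a, a B cell receptor component. This gate kept 3423 of 13291 barcodes in the WT library and 733 of 12958 in the CKO library. Gated barcodes were split into 4 classes by coreceptor UMIs, called here the Cd4 class, the Cd8b1 class, the class with both and the class with neither.

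The barcodes come from spleen immune cells of C57BL/6 mice, in 10x Genomics 3′ single-cell libraries of 2 genotypes, WT and RPA1 conditional knockout (CKO), 1 library each. RPA1 belongs to the replication protein A complex that coats single-stranded DNA during replication, repair and recombination. The series asks what RPA1 does in T cells; the Cre driver, the deleted exons, the age and the number of animals pooled are not given in the sources used here. With 1 library per genotype there is no replicate and no test, and every interval and floor given covers counting error only.

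An alpha-beta T cell builds its receptor in the thymus by cutting and joining DNA. A Trbv segment is joined to D and J segments at the beta locus first, and a Trav segment is joined to a Traj segment at the alpha locus later. The alpha locus can be joined again several times in the same cell, each round replacing the previous join with a Trav segment farther from the Traj segments and a Traj segment farther from the Trav segments. The delta chain genes of gamma-delta T cells lie inside the alpha locus, so an alpha join deletes them, and a few segments (those with dv in the symbol) can serve either chain.

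The germline letters show what separates these rows. The last 90 bases of each segment hold the codon TGT, in capitals, for the cysteine that opens the third hypervariable loop, the part of the chain that meets the peptide. The first set holds 7 Trbv segments whose levels differed between the coreceptor classes in WT and which are described below (all on the plus strand of mm10). The bases shown are chr6:41113978-41114067 for Trbv12-1, chr6:41271792-41271881 for Trbv29, chr6:41163467-41163556 for Trbv17 and chr6:41188888-41188977 for Trbv20. They are chr6:41048739-41048828 for Trbv3, chr6:41121743-41121832 for Trbv13-2 and chr6:41178959-41179048 for Trbv19.
Trbv12-1: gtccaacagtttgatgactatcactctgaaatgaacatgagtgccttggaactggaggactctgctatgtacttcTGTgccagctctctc
Trbv29: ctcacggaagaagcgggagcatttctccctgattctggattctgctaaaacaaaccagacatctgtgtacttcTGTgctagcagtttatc
Trbv17: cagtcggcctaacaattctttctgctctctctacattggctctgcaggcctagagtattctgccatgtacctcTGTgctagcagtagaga
Trbv20: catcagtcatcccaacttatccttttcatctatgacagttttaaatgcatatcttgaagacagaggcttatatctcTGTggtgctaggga
Trbv3: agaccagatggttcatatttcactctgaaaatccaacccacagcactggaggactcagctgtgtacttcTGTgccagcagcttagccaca
Trbv13-2: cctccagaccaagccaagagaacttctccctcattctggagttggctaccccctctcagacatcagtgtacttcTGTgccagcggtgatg
Trbv19: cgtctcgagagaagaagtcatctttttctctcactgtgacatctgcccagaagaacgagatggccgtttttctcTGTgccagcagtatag

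The alpha locus instead holds near-identical copies. Trav4-3 (chr14:53599321-53599410 for the bases shown) and Trav4-4-dv10 (chr14:53684088-53684177) are 2 of the 3 Trav rows whose CKO over WT interval cleared 1 in the Cd4 class, and their last 90 bases differ at 2 positions. Trav22 (chr14:53927506-53927595) is an annotated pseudogene whose last bases were printed without capitals, and it is shown because its UMIs were found in barcodes with the NK cell gene Ncr1.
Trav4-3: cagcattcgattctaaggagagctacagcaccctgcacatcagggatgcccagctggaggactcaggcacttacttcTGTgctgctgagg
Trav4-4-dv10: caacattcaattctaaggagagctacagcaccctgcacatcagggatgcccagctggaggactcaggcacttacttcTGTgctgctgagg
Trav22: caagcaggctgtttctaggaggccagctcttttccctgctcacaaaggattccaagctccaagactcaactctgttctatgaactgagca

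The Trav14 copies show how far apart 3 homologous rows can be on the chromosome while sharing nearly all letters. The 80-base window with the most differences holds 5 differing positions, in capitals, and over the 361 bases the 3 rows share, Trav14n-3 is 96.7% and Trav14-3 is 97.2% identical to Trav14d-3-dv8. The genes, each with an intron, span chr14:53078452-53079045 (Trav14d-3-dv8), chr14:53370077-53370575 (Trav14n-3) and chr14:53763173-53763694 (Trav14-3).
Trav14d-3-dv8: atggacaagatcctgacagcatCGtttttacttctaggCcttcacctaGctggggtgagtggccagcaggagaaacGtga
Trav14n-3: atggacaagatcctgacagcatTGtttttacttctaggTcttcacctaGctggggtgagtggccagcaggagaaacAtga
Trav14-3: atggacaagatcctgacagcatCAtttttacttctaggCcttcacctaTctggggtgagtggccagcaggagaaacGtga
The sequences are from the GENCODE M21 transcripts on mm10. A 3′ library reads mostly the constant end of a receptor mRNA, so a V row gets a UMI only where a cDNA fragment reached far enough upstream, and a barcode without a V UMI still has a receptor.

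The libraries held 84240951 UMIs (WT) and 76910129 UMIs (CKO), with a median of 5355 and 4616 per barcode, and they shared 36 barcodes, of which none was gated in both. Markers that the gate did not use were present: all 6 of the T cell list (Trac, Trbc2, Cd3g, Lat, Cd5, Cd6) were detected in every class. They were also detected in B cell barcodes (at least 2 Cd79a UMIs and no Cd3d or Cd3e UMI), so detection alone does not mark T cells. Trbc2 had a UMI in 98.9% of gated WT and 97.5% of gated CKO barcodes, against 6.67% and 1.91% of B cell barcodes. The WT library had 1292 Cd4, 1199 Cd8b1, 184 both and 748 neither barcodes, and the CKO library had 300, 122, 56 and 255. Rpa1 itself stood at 42.9 CPM (a gene's share of all UMIs of the summed barcodes scaled to 1000000; 95% interval 40.3 to 45.5) in gated WT and 34.0 CPM (29.0 to 39.7) in gated CKO barcodes. A 3′ count need not cover the deleted part, so this level does not check the genotype.

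The gated barcodes of the 2 libraries differed in UMIs of other lineages, a difference that stands beside every comparison of classes. Trdc, the delta constant gene, had a UMI in 4.35% of gated WT and 23.6% of gated CKO barcodes. Among Cd8b1 class barcodes its share was 3.50% against 32.8%, and in the class with neither coreceptor 8.56% against 46.3%, while in the Cd4 class it was 3.02% against 4.33%. Trac, the alpha constant gene, had a UMI in 94.7% of WT and 80.3% of CKO Cd8b1 barcodes and in 95.9% and 91.7% of Cd4 barcodes. Hbb-bs, a beta globin gene of red blood cells, stood at 0.102 CPM in WT and 2749 CPM in CKO Cd8b1 barcodes, where its 2516 UMIs sat in 2 of the 122 barcodes, and at 0.221 and 275 CPM in Cd4 barcodes. Summed myeloid markers (Lyz2, Csf1r, Itgam, S100a8, Cst3) stood at 460 and 1972 CPM in the Cd4 class and at 755 and 268 CPM in the Cd8b1 class. The class with neither coreceptor had the highest CKO level, at 1072 and 8166 CPM. Summed NK markers (Ncr1, Klrb1c, Eomes, Gzma, Klra8) stood at 67.2 and 306 CPM in the Cd4 class and at 181 and 502 CPM in the Cd8b1 class. All 5 NK and 5 myeloid markers were detected in each of these classes, and the part of these lineages in the results was tested only by leaving out barcodes, as stated where a value moved.

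Of the 128 Trav rows, 75 had at least 1 UMI in gated barcodes, and of the 35 Trbv rows 23 did. The Trav rows summed to 1685 UMIs in WT and 339 in CKO, the Trbv rows to 1555 and 276. Among Trbv rows, 11 of the 12 at 0 are annotated pseudogenes, whereas 40 of the 53 Trav rows at 0 are annotated as functional genes. In the transcripts, 39 of the 53 Trav rows at 0 have no unique 50-base stretch, meaning one that occurs in no transcript of any other gene. The detected Trav rows had a median of 55.8% unique stretches and the detected Trbv rows 100%. Counts of a Trav row therefore depend on which copy a read could be assigned to, and Trav values are given for the numbered subgroup as well. The J segments, 74 rows too short for this assay, had 2 UMIs in WT and 0 in CKO.

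About 3 in 10 gated barcodes showed each locus. A Trav UMI was present in 29.4% of gated WT and 30% of gated CKO barcodes, a Trbv UMI in 33.0% and 30%, and both in 11% and 10.4%. B cell barcodes (at least 2 Cd79a UMIs), which should lack these transcripts, had a Trav UMI in 0.123% of 7291 WT and 0.101% of 9919 CKO barcodes, and a Trbv UMI in 0.302% and 0.0101%, at medians of 4648 and 4441 UMIs against 6803 and 6129 in gated barcodes. The gated shares were thus far above the B cell shares in both libraries. Barcodes with Cd3d and Cd3e that were left out for a Cd79a UMI numbered 850 in WT and 425 in CKO, and 27.1% and 23.3% of them had a Trav UMI.

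The share of the Cd4 class with a Trav UMI was 29.8% (27.3 to 32.4) in WT and 36.7% (31.2 to 42.4) in CKO, 6.87 percentage points apart (1.03 to 13). On the scale of summed UMIs the Trav level in that class was 73.1 CPM in WT and 92.7 CPM in CKO, a ratio of 1.27 (1.07 to 1.5), although Trac itself was lower in CKO at 0.837 times the WT level (0.788 to 0.888). The direction of this Trav difference turned when each barcode was thinned to 1000 UMIs. That left out 4 WT and 1 CKO Cd4 barcodes below this depth. The share was then 0.735 points lower in CKO and the level 0.923 times the WT level. Thinning was a single draw that kept a small part of the UMIs, so it cannot show whether the difference holds. Trbv in the Cd4 class was 71.4 CPM in WT and 60.9 CPM in CKO, a ratio of 0.854 (0.696 to 1.04). The ratio was 0.541 (0.352 to 0.802) with a call at 2 UMIs and 1.06 (0.832 to 1.33) without barcodes that held UMIs of other lineages. In the Cd8b1 class neither locus differed beyond counting error, with CKO over WT level ratios of 1 (0.743 to 1.33) for Trav and 0.993 (0.723 to 1.34) for Trbv, the latter at 0.623 (0.306 to 1.14) with a call at 2 UMIs.

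Segment use, given as the share of barcodes with any UMI of the locus, was led by Trbv2, Trbv13-2 and Trbv3 in both libraries. Trbv2 was seen in 14.0% of WT and 12.3% of CKO Trbv barcodes. Trbv13-2, the segment known as V beta 8.2, was seen in 13.5% and 16.4%, and Trbv3 in 9.55% and 12.7%. The remaining rows among the 8 most frequent in WT were Trbv12-2 (8.05% and 5%), Trbv19 (7.43% and 7.73%), Trbv1 (6.98% and 6.36%), Trbv13-1 (6.54% and 5.91%) and Trbv20 (5.92% and 6.82%). In CKO Trbv13-3 was also among the leading rows, at 6.82% against 4.24% in WT. Pooled, the Trbv13 rows made up 23.9% in WT and 28.2% in CKO. For each of the 8 rows the WT share lay inside the CKO interval.

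Trav use was spread more widely. Trav14d-3-dv8 was the most frequent WT row at 12.2% (10.3 to 14.4) and stood at 6.36% (3.52 to 10.4) in CKO. Trav3-3 was at 7.75% and 5%, Trav6-7-dv9 at 4.87% and 5%, Trav13-1 at 4.57% and 4.09%. In CKO the most frequent row was Trav14-2, at 7.73% against 3.77% in WT, followed by Trav14d-3-dv8 and Trav16, both at 6.36%. The order of the subgroups was alike at the top, with Trav14 at 22.6% in WT and 20.9% in CKO, Trav13 at 11.4% and 14.5%, and Trav6 at 10.5% and 10.9%. The Trav14 subgroup was first in both libraries, led by Trav14d-3-dv8 in WT and by Trav14-2 in CKO.

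The position of a row on the chromosome was compared next. The 128 Trav rows were ordered along chromosome 14 (52427928 to 53977678) toward the Traj segments (54155005 to 54218842) and Trac (54220521 to 54224206), and divided by rank into a distal group of 43 rows, a middle group of 43 and a proximal group of 42 that begins at 53461099. In all gated barcodes with a Trav UMI, 80.9% of CKO (178 of 220; 75.1 to 85.9) and 64.9% of WT (654 of 1007; 61.9 to 67.9) had a proximal segment, 16 percentage points apart (9.57 to 21.5). The middle group was 13.4 points lower in CKO (interval -18.6 to -7.22) and the distal group 2.68 points lower (interval -6.38 to 2.13). A barcode with more than 1 segment can count in more than 1 group. Of the 39 Trav rows at 0 without a unique 50-base stretch, all but Trav6-6 lie in the distal or middle group. Reads of such rows are hard to assign, although Trav11, also without a unique stretch, had 12 UMIs in gated WT barcodes. The shares of both libraries therefore describe position mainly among rows that reads could be assigned to.

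The proximal share was higher in CKO in 3 of the 4 coreceptor classes. In the Cd4 class it was 79.1% (87 of 110) against 63.9% (246 of 385), a difference of 15.2 points (5.50 to 23.4). In the Cd8b1 class it was 88.6% (31 of 35) against 69.6% (236 of 339), a difference of 19.0 points (3.70 to 27.5). In barcodes with neither coreceptor it was 88.9% (48 of 54) against 61.3% (130 of 212), a difference of 27.6 points (14.8 to 36.5). Taken over all barcodes of a class, a proximal segment was seen in 18.8% of CKO and 17.4% of WT barcodes with neither coreceptor, a ratio of 1.08 (0.761 to 1.52), and a middle segment in 5 of 255 and 73 of 748 barcodes, a ratio of 0.201 (0.0633 to 0.491). Among Cd4 barcodes a proximal segment was seen in 29.0% and 19.0% of all barcodes, and a middle segment in 7.33% and 9.21%. A distal segment was seen in 0.392% of CKO and 2.94% of WT barcodes with neither, a ratio of 0.133 (0.00323 to 0.825). Without Trdc barcodes the ratios in the class with neither were 0.990 proximal (0.611 to 1.54), 0.211 middle (0.0425 to 0.642) and 0.227 distal (0.00550 to 1.40). The share difference thus came with lower middle and distal groups in the class with neither and mainly with a higher proximal group in the Cd4 class. The Cd4 class also had more Trav barcodes in CKO, an excess not seen after thinning, where few Trav UMIs were left. The class with both coreceptors, which can hold doublets, stood at 57.1% (12 of 21) in CKO and 59.2% (42 of 71) in WT. It was the 1 class in which the shares were close, with an interval of the difference from -25.2 to 19.7 points.

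**Figure D1:**
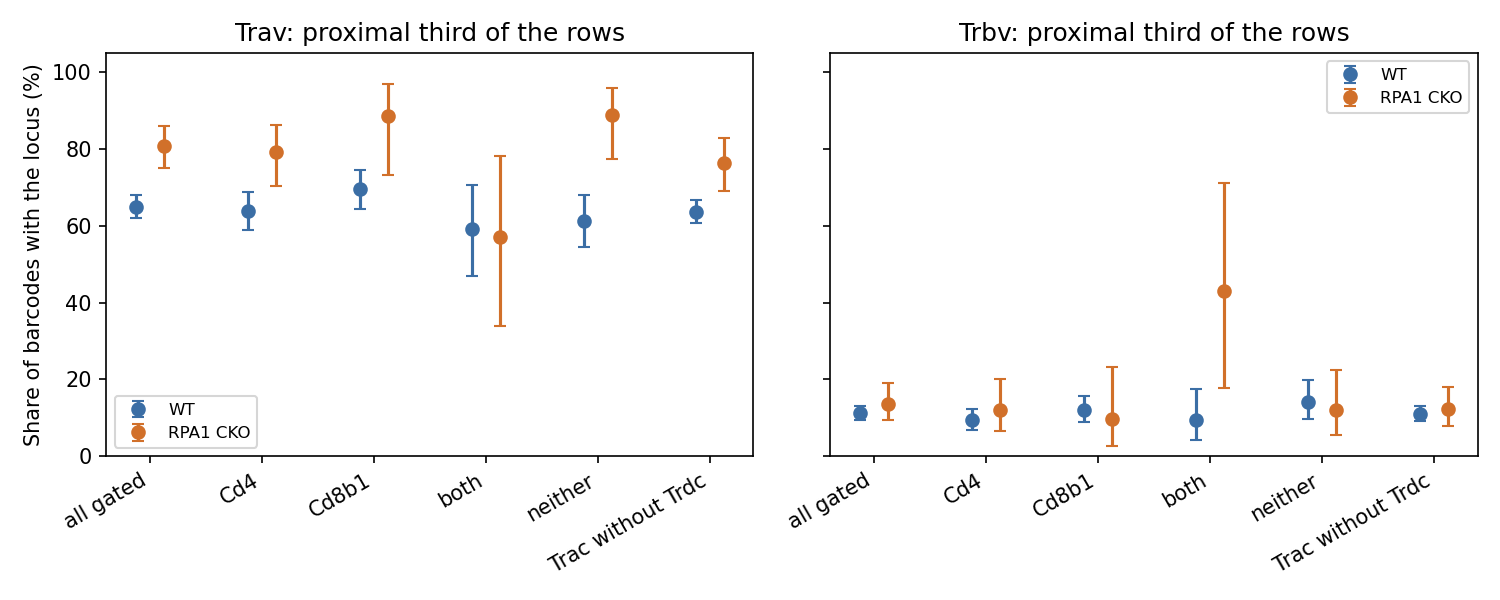
Share of barcodes with a UMI of the locus that held a segment of its proximal group, for Trav (left) and Trbv (right), in each coreceptor class and in barcodes with Trac but no Trdc UMI; points are single libraries and bars are exact 95% binomial intervals. The CKO points for Trav lie above the WT points in 5 of the 6 sets shown, the exception being the class with both coreceptors.

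Several dv rows lie in the proximal group and Trdc barcodes were more frequent in CKO, so the comparison was repeated without them. In barcodes with a Trac UMI and no Trdc UMI the proximal share was 76.4% in CKO (120 of 157; 69.0 to 82.8) and 63.7% in WT (599 of 940; 60.6 to 66.8), 12.7 points apart (4.89 to 19.4). Without Trdc the Cd4 class was at 77.7% and 63.5%, 14.2 points apart (4.02 to 22.7). Without Trdc the Cd8b1 class was at 85.7% (18 of 21) and 68.4%, and the interval then reached below 0 (-3.62 to 28.0). Leaving out the most frequent WT row, Trav14d-3-dv8, which lies in the middle group, gave 84.0% and 70.0% in all gated barcodes, and leaving out the proximal pseudogene Trav22 gave 79.1% and 64.6%.

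Read by order rather than by group, the median Trav detection in barcodes with Trac and no Trdc was row 96 of 128 (Trav13-1) in WT and row 101 (Trav4-3) in CKO. In the Cd4 class it was row 96 in WT and row 100 (Trav9-2) in CKO, and in the Cd8b1 class row 103 (Trav12-2) and row 106 (Trav14-2). Within the Cd4 class, barcodes without a UMI of S100a4, a gene of antigen-experienced T cells, had a proximal share of 81.8% in CKO and 63.6% in WT, 18.2 points apart (8.20 to 26.4). With S100a4 there were 11 CKO and 36 WT Trav barcodes, at 54.5% and 66.7% (interval of the difference -41.7 to 17.1). In these few barcodes the middle group was higher in CKO, at 5 of 11 against 6 of 36, 28.8 points apart (0.212 to 56.7), opposite to the other Cd4 barcodes.

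**Figure D2:**
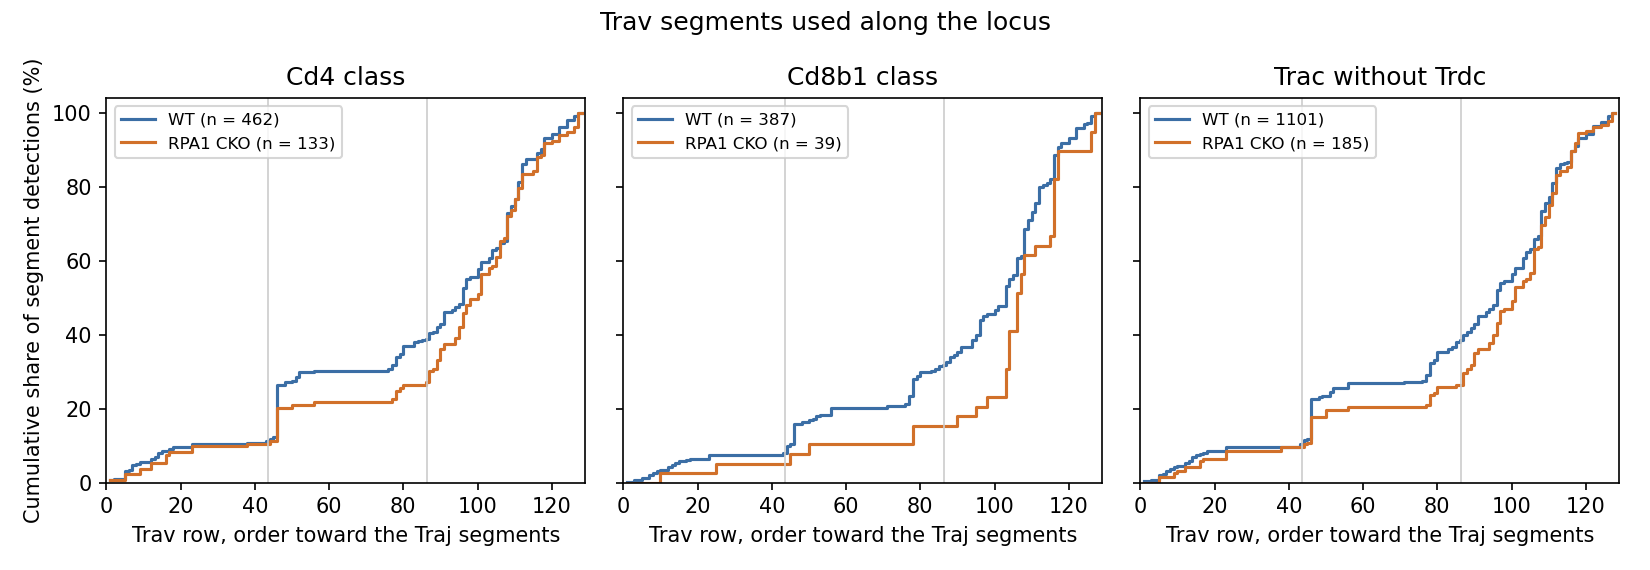
Cumulative share of Trav detections (y axis, %) against the order of the row along chromosome 14 toward the Traj segments (x axis), for the Cd4 class, the Cd8b1 class and barcodes with Trac and no Trdc; n is the number of row detections and grey lines part the 3 rank groups. The CKO line lies to the right of the WT line through the middle group in all 3 panels, and the tall step in the middle group is Trav14d-3-dv8.

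The rows of the duplicated part of the locus were also compared by copy. The mouse locus repeats a block of Trav segments, so that 37 names exist as a plain copy and as a d copy farther from the Traj segments. An n copy between the 2 exists for 31 of these names (Trav14-3 with Trav14d-3-dv8 and Trav14n-3, for example). Of the barcodes with a UMI of any of these 37 names, 80.2% in CKO (158 of 197) and 67.9% in WT (616 of 907) had the plain copy, 12.3 points apart (5.49 to 18.1). The d copies were 8.26 points lower in CKO (interval -13.5 to -1.99) and the n copies 6.85 points lower (interval -11 to -1.51). In barcodes with Trac and no Trdc the plain copies were at 75.7% in CKO and 67.1% in WT, 8.60 points apart (0.382 to 15.7), while the intervals of the d copies (-11.1 to 3) and n copies (-10.6 to 0.635) crossed 0. All 3 intervals crossed 0 in the Cd4 class, with the plain copies 9.81 points apart (-0.576 to 18.7). The shares are pooled over names, so they also move with which names were used. Trav3-3 and Trav14-2, with 115 and 68 plain UMIs in WT, had no UMI of a d or n copy in either library. The d and n copies of these names have 0% unique 50-base stretches, against 60.0% and 54.4% for the plain copies. Their zeros therefore do not show that they were unused, and the copy shares depend on which copies could be told apart. Single names did not all go the same way, and Trav9-1 had 19 plain, 3 n and 1 d UMIs in WT and 3 plain and 3 d UMIs in CKO. These rows share most of their letters, so a read can be placed on a copy only where it covers a differing base.

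At the beta locus the difference over all gated barcodes was within counting error. With the 35 Trbv rows grouped the same way, the proximal group of 11 rows, the last of which (Trbv31) lies past the D, J and constant genes, was seen in 13.6% of CKO (30 of 220) and 11.1% of WT Trbv barcodes (125 of 1131), 2.58 points apart (-1.79 to 8.02). Cd4 class values were 12.1% and 9.32%, and in the Cd8b1 class 9.76% and 12%. The class with both coreceptors was apart, at 6 of 14 CKO barcodes (42.9%) and 8 of 86 WT barcodes (9.30%), a difference of 33.6 points (10.6 to 58.5) that rests on 14 barcodes.

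Single members were compared between libraries where a row had at least 20 UMIs over both libraries in a class, and a fold of 1.5 in CPM counted as a call. In the Cd4 class 25 of the 163 rows had enough UMIs, of which 5 were higher and 7 lower in CKO. Over all genes with as many UMIs 8.41% were higher and 8.35% lower, and over genes in the members' own range of UMIs 19.1% and 18.6%, so that 20% of members higher lies near the background of equally sparse genes and 28.0% lower somewhat above it. The median member log2 ratio was -0.15, and that of all genes 0.03. The rows passed the minimum on their sum, so a row high in one library only can pass through that library.

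The Cd4 rows whose intervals cleared 1 were 3 Trav rows and 1 Trbv row. Trav4-3 had 12 UMIs in 7 of 300 CKO barcodes and 15 UMIs in 9 of 1292 WT barcodes, which is 6.15 against 1.66 CPM and a ratio of 3.71 (1.59 to 8.49). Its close copy Trav4-4-dv10 had 12 UMIs in 4 CKO and 23 UMIs in 9 WT barcodes. That was 6.15 against 2.54 CPM, a ratio of 2.42 (1.1 to 5.07). In each library 1 barcode held many of these UMIs, 7 of 12 in CKO and 9 of 23 in WT. The Trav4-4-dv10 barcode ratio of 1.91 did not clear 1 (0.431 to 6.86), while that of Trav4-3 did, at 3.35 (1.06 to 10.1). Both copies lie in the proximal group, and reads could be shared between them, since their last 90 bases differ at only 2 positions. Of their 50-base stretches, 76.0% and 46.8% occur in no transcript of any other gene. The Trav4 subgroup as a whole was seen in 3.67% of CKO and 1.63% of WT Cd4 barcodes, a ratio of 2.26 (0.982 to 4.89). Without barcodes that held UMIs of other lineages the Trav4-3 ratio was 1.18.

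Trav14-1 had 8 UMIs in 3 CKO barcodes and 13 UMIs in 11 WT barcodes, a ratio of 2.85 (1.03 to 7.43), but 6 of the 8 CKO UMIs sat in 1 barcode. Without the barcode with the most UMIs in each library its ratio was 0.843, so this row gave no direction. Trbv19 was the row with the lower CKO level, 4 UMIs in 3 CKO barcodes and 51 UMIs in 43 WT barcodes, 2.05 against 5.63 CPM, a ratio of 0.364 (0.0954 to 0.989).

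In the Cd8b1 class 24 rows had enough UMIs, of which 7 were higher and 12 lower in CKO, 6 of these at 0 there. Over all genes 12.5% were higher and 11.9% lower, and over genes in the members' range of UMIs 28.2% and 29.7%, beside 29.2% and 50% of the members. The median member log2 ratio was -0.46, against 0.07 for all genes. Genes in the members' range of UMIs meet the same class depth, and why more members were called lower was not tested. The lower calls came with only 54 Trav and 48 Trbv UMIs in the 122 CKO barcodes, and no lower call had an interval clear of 1. Trav14d-3-dv8 is an example, with 30 UMIs in 21 WT barcodes and 0 of 122 CKO barcodes, an interval of the ratio from 0 to 1.41.

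Both rows that cleared 1 in the Cd8b1 class were Trbv rows. Trbv3 had 10 UMIs in 8 CKO barcodes and 30 UMIs in 24 WT barcodes, 10.9 against 3.05 CPM, a ratio of 3.59 (1.56 to 7.54). Trbv19 had 7 UMIs in 6 CKO and 24 UMIs in 18 WT barcodes, 7.65 against 2.44 CPM, a ratio of 3.14 (1.14 to 7.51). Trbv19 was therefore lower in CKO among Cd4 barcodes and higher among Cd8b1 barcodes, and with 1 library per genotype that difference was not tested.

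**Figure D3:**
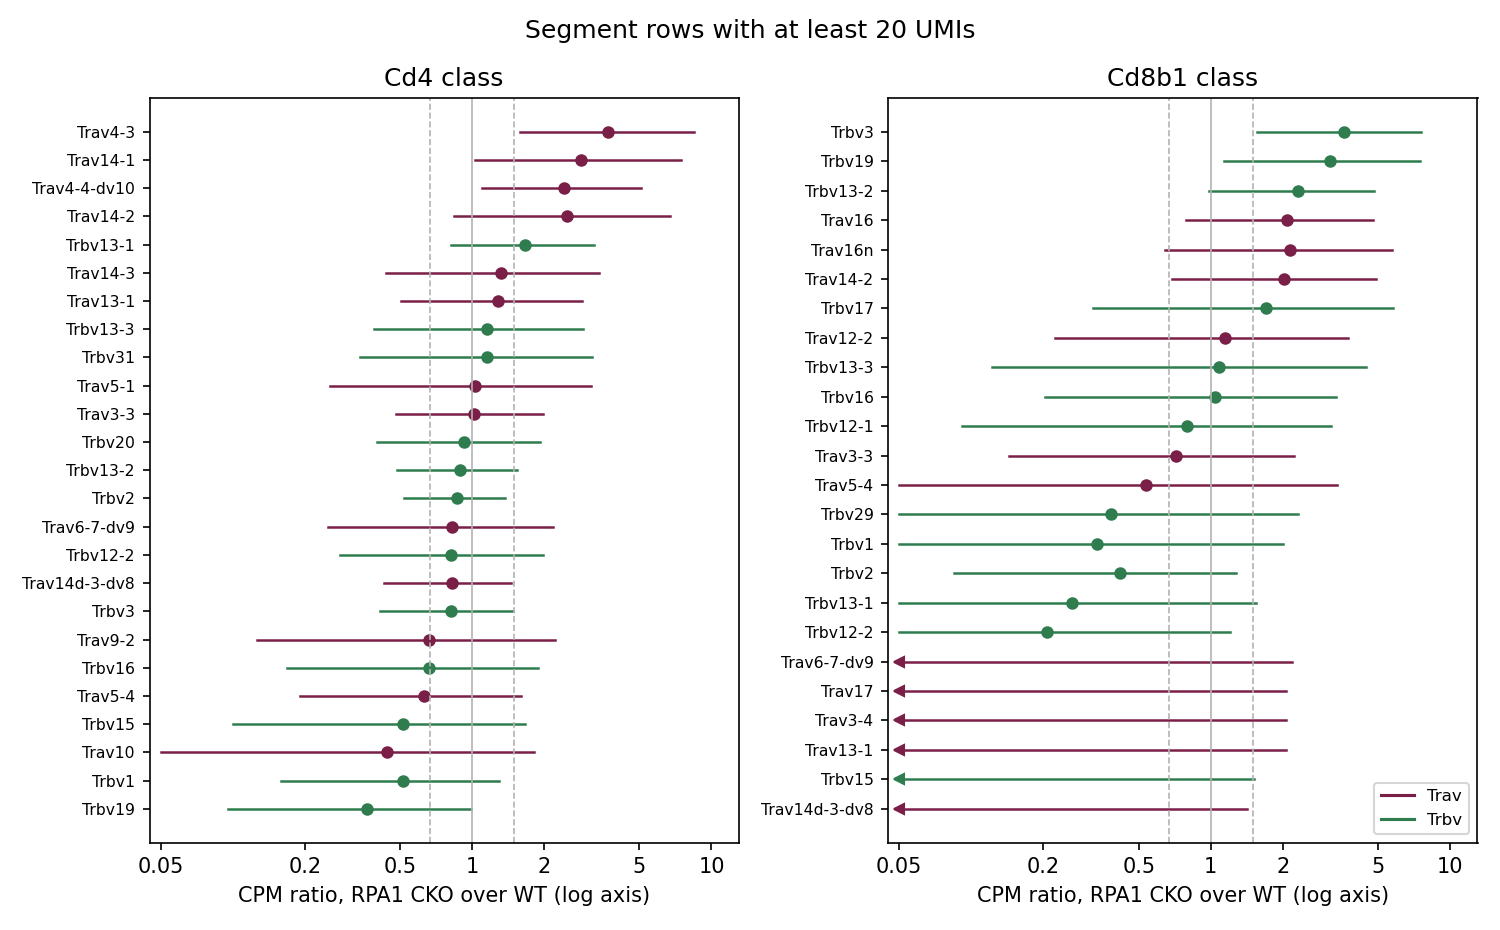
CKO over WT ratio of CPM (x axis, log scale) for each Trav and Trbv row with at least 20 UMIs, in the Cd4 class (left, 25 rows) and the Cd8b1 class (right, 24 rows); bars are exact 95% counting intervals, cut off at the left edge of the axis, dashed lines mark 1.5-fold and arrowheads mark 6 rows at 0 in CKO. Most intervals cross 1; those that do not are Trav4-3, Trav14-1, Trav4-4-dv10 and Trbv19 on the left and Trbv3 and Trbv19 on the right.

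CD4 and CD8 T cells recognise peptides on different MHC classes, and some V segments are known to favour one lineage. The WT library had enough barcodes to compare them. Summed Trbv was 71.4 CPM in the Cd4 class and 52.8 CPM in the Cd8b1 class, a ratio of 0.740 (0.658 to 0.832), and summed Trav was 73.1 and 58.9 CPM, a ratio of 0.806 (0.719 to 0.902). Counted per UMI of Trac the direction of Trav turned, at 1.16 (1.03 to 1.29), while Trbv per UMI of its constant rows was at 0.875 (0.778 to 0.983). Of 39 rows with at least 20 UMIs in these classes, 10 were higher and 16 lower by 1.5-fold in the Cd8b1 class, against 6.47% and 11.5% of all genes, and 12.7% and 23.9% of genes in the members' UMI range. The members were thus called at 25.6% and 41.0%. UMI intervals cleared 1 for 7 of the higher and 12 of the lower rows, and barcode intervals as well for 5 and 6. UMIs of a row can sit in few barcodes, such as 9 of the 21 Cd8b1 UMIs of Trav3-4 in 1. Genes with equal UMI totals are thus an imperfect background, here and in the comparisons between libraries.

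Of 4 Trbv rows called higher in WT Cd8b1 barcodes, Trbv12-1, Trbv17 and Trbv29 had UMI intervals clear of 1 and Trbv14 did not (2.23; 0.880 to 6.37). They are named here after their values were seen where they are not among the most frequent rows. Trbv12-1 was seen in 1.83% of 1199 Cd8b1 barcodes and 0.387% of 1292 Cd4 barcodes, with a UMI level ratio of 3.1 (1.37 to 7.90). Trbv29 was seen in 1.75% and 0.619%, a level ratio of 2.86 (1.31 to 6.89). Trbv17 was seen in 12 and 4 barcodes, a level ratio of 4.37 (1.45 to 17.7). Its barcode ratio of 3.23 did not clear 1 (0.980 to 13.8), and 5 of its 19 Cd8b1 UMIs sat in 1 barcode. The pooled Trbv12 rows were at 5.17% and 2.79% of barcodes, a ratio of 1.86 (1.21 to 2.88).

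Lower in the Cd8b1 class by 1.5-fold were 7 Trbv rows, of which Trbv20, Trbv3, Trbv19 and Trbv13-2 had both UMI and barcode intervals clear of 1. Trbv20 was seen in 1% of Cd8b1 and 3.25% of Cd4 barcodes in WT, with a level ratio of 0.286 (0.145 to 0.531). Trbv3 was seen in 2% and 4.33%, a level ratio of 0.373 (0.235 to 0.577), and Trbv19 in 1.5% and 3.33%, a level ratio of 0.433 (0.255 to 0.716). Trbv13-2 was seen in 3.50% and 5.50%, a level ratio of 0.465 (0.313 to 0.682). Trbv31 (0.414; 0.166 to 0.951) and Trbv2 (0.600; 0.444 to 0.806) cleared 1 in UMIs but not in barcodes, and Trbv1 in neither. Of the 7 segments printed at the start, 99.7% of the 50-base stretches of Trbv13-2 and 100% of those of the other 6 occur in no transcript of any other gene.

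Among alpha segments, Trav16, Trav12-2 and Trav14-2 were more frequent in WT Cd8b1 barcodes and Trav14d-3-dv8 and Trav14-3 in Cd4 barcodes, with UMI and barcode intervals both clear of 1. Trav16 was seen in 2.09% of Cd8b1 and 0.619% of Cd4 barcodes, Trav12-2 in 1.75% and 0.387%, and Trav14-2 in 1.5% and 0.542%. Trav14d-3-dv8 was seen in 1.75% and 5.03%, and Trav14-3 in 0.334% and 1.08%. The Trav14 rows thus split, with Trav14-2 on one side and the homologous rows Trav14d-3-dv8 and Trav14-3 on the other, and the pooled subgroup followed the latter at 4.34% and 7.97%, a ratio of 0.544 (0.382 to 0.766). The pooled Trav16 rows were at 4.09% and 1.63%, a ratio of 2.51 (1.48 to 4.41). Trav12-2 and Trav14-3 were named after their values were seen.

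**Figure D4:**
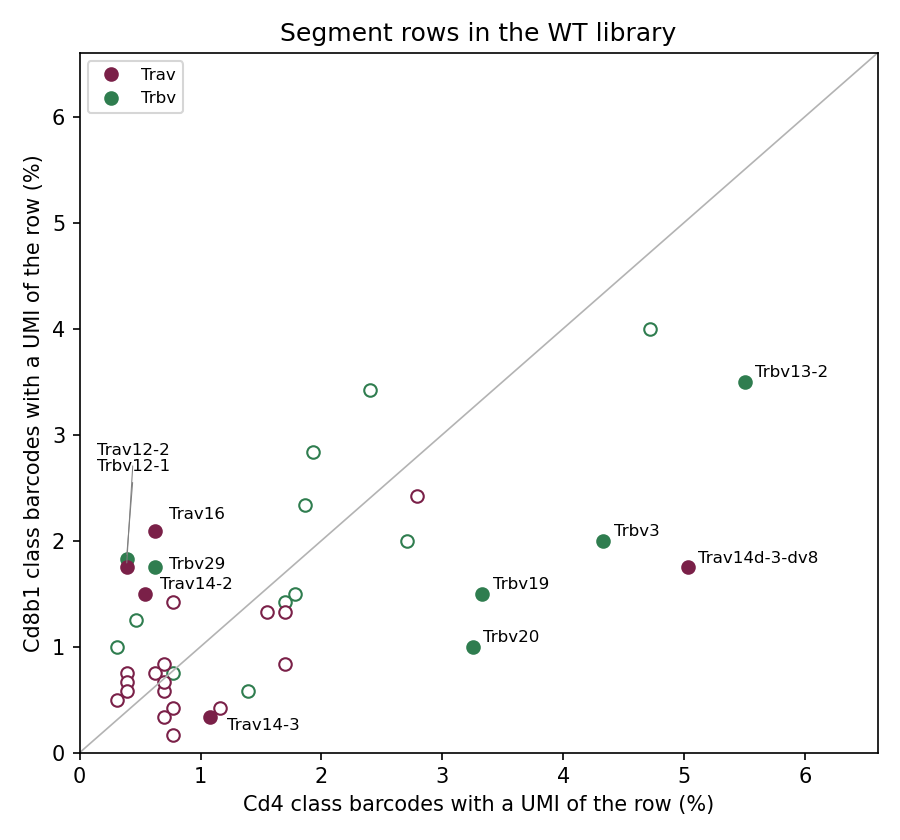
Share of WT Cd8b1 class barcodes (y axis, %) against share of WT Cd4 class barcodes (x axis, %) with a UMI of each of the 39 rows with at least 20 UMIs; filled points are the 11 rows called in UMIs whose barcode interval also cleared 1, and the line marks equal shares. Trbv12-1, Trav12-2, Trav16, Trbv29 and Trav14-2 lie above the line, and Trbv13-2, Trav14d-3-dv8, Trbv3, Trbv19, Trbv20 and Trav14-3 below it.

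The CKO library gave these 11 rows a second reading in another library. All 5 rows higher in WT Cd8b1 barcodes were also higher in CKO Cd8b1 than in CKO Cd4 barcodes, Trav16 for example at 4.92% and 1.67%, and Trbv12-1 at 2 of 122 barcodes and 0 of 300. Trbv29 was nearly equal, at 1 of 122 (0.820%) and 2 of 300 barcodes (0.667%), and gives no clear direction. Of the 6 rows lower in WT Cd8b1 barcodes 3 were also lower in CKO, Trbv20 at 0.820% and 2.67%, Trav14d-3-dv8 at 0 of 122 and 4%, and Trav14-3 at 0 of 122 and 1.33%. The other 3 were higher in CKO Cd8b1 barcodes: Trbv3 at 6.56% and 3.67%, Trbv13-2 at 5.74% and 5%, and Trbv19 at 4.92% and 1%. A count of 0 of 122 barcodes allows a share of up to 2.46%, so most of these CKO values fix the direction loosely.

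Each T cell uses 1 beta chain as a rule, because a productive beta join stops further joining, while the alpha locus can be joined on both chromosomes. Of barcodes with a Trbv UMI, 6.81% in WT (77 of 1131; 5.41 to 8.44) and 9.09% in CKO (20 of 220; 5.64 to 13.7) had 2 or more Trbv rows. Of barcodes with a Trav UMI, 14.5% in WT (146 of 1007) and 14.5% in CKO (32 of 220) had 2 or more Trav subgroups. The alpha share was above the beta share over all gated barcodes and in the Cd4 and Cd8b1 classes of both libraries. In CKO it was below the beta share in the class with neither coreceptor (11.1% and 16.7%), in the class with both (9.52% and 21.4%) and after thinning (2.17% and 2.27%). Doublets were not removed, and at this depth most second chains would be missed.

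The evenness of segment use over all gated barcodes had overlapping intervals in the 2 libraries. The effective number of Trbv rows, the number of equally used rows that would give the same chance of drawing 2 alike, was 13.8 in WT (13 to 14.7) and 14.0 in CKO (12.1 to 16.6). With a call at 2 UMIs it was 7.45 in WT (6.12 to 9.53) and 11.9 in CKO (8.41 to 20.5), the latter from 31 barcodes. For Trav it was 36.9 (33.1 to 41.6) and 35.9 (29.6 to 45.7). Brought to 200 single-row barcodes, 20.6 Trbv rows were expected in WT and 21 were seen in CKO, and at 185 barcodes 56.7 and 50 Trav rows. By class, the effective number of Trav rows in Cd4 barcodes was 29.4 in WT (24 to 38.1) and 42 in CKO (31.1 to 64.6), with overlapping intervals. Brought to 87 single-row Cd4 barcodes, 40.6 Trav rows were expected in WT and 42 were seen in CKO. Counted by Trav subgroups, the effective number in Cd4 barcodes was 10.7 in WT and 11.8 in CKO. For Trav rows in Cd8b1 barcodes it was 36.7 in WT (31.3 to 44.4) and 14.5 in CKO, the latter from 31 barcodes with an interval of 9.23 to 34.1.

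Barcodes with exactly 1 Trav subgroup and 1 Trbv row gave 292 pairs in WT and 55 in CKO. The WT pairs fell into 158 combinations, of which 89 were seen once, and the CKO pairs into 45, of which 38 were seen once. Trav14 with Trbv13-2 was the most frequent WT pair with 12 barcodes, beside 6.25 from the product of the separate shares. Trav7 with Trbv13-2 followed with 8 barcodes beside a product of 3.29. In CKO no pair was seen more than 3 times, and Trav14 with Trbv13-2 was again among the most frequent, with 3 barcodes beside a product of 2.55, together with Trav14 with Trbv2 and Trav6 with Trbv13-2.

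Invariant alpha chains mark innate-like T cells: Trav11 is used by natural killer T cells and Trav1 by mucosal-associated invariant T cells. Trav11 rows were seen in 12 of 3423 gated WT barcodes (0.351%; 0.181 to 0.612), 8 of them in the class with neither coreceptor and 5 with a UMI of Zbtb16, the transcription factor of these cells. They were seen in 0 of 733 CKO barcodes, which allows a share of up to 0.409%, so the WT share is not shown to differ at this depth. Trav1 was seen in 4 WT barcodes and 1 CKO barcode.

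Gamma-delta T cells pass the Cd3 gate, and barcodes with a Trdc UMI and no Trac UMI numbered 39 in WT and 98 in CKO. Rows with dv in the symbol were seen in 3 of the 39 (7.69%; 1.62 to 20.9) and 12 of the 98 (12.2%; 6.49 to 20.4). In barcodes with Trac and no Trdc the same 10 rows were at 7.42% of 3100 and 7.43% of 498, nearly equal between the libraries. The dv rows with the most barcodes among Trdc barcodes without Trac were Trav15-2-dv6-2 (1 WT and 4 CKO), Trav13-4-dv7 (0 and 4), Trav15-1-dv6-1 (2 and 2) and Trav21-dv12 (0 and 2). Trav14d-3-dv8, the dv row most frequent in the gate, had none there in either library. A Trbv UMI was present in 0 of the 39 WT and 13 of the 98 CKO barcodes (13.3%; 7.26 to 21.6), while beta constant rows were common in both: Trbc2 was in 92.3% and 93.9% of them.

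Trav22 stood apart from the other alpha rows. It is a pseudogene at chr14:53926978-53927595, row 127 of 128 in order toward the Traj segments, and all of its 50-base stretches are unique. Outside the gate, in barcodes with no Cd3d, Cd3e or Cd79a UMI and at least 1 UMI of Ncr1, which encodes the NK cell receptor NKp46, Trav22 was seen in 20 of 322 WT barcodes (6.21%; 3.83 to 9.43) and 56 of 776 CKO barcodes (7.22%; 5.50 to 9.27). All other Trav rows together were seen in 0 of these barcodes in both libraries, which allows up to 0.932% in WT and 0.387% in CKO.

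Inside the gate Trav22 was also seen in barcodes with Ncr1, in 3 of 44 in WT (6.82%; 1.43 to 18.7) and 3 of 30 in CKO (2.11 to 26.5). It was seen as well in 3 of the 39 WT and 2 of the 98 CKO barcodes with Trdc and no Trac. Without Ncr1, Cd3d, Cd3e and Cd79a it was seen in 0 of 703 WT and 2 of 655 CKO barcodes. In gated barcodes without Ncr1 it was seen in 0.385% of WT and 1.14% of CKO, and in B cell barcodes in 0.0137% and 0.0807%. Of all the Ncr1 barcodes outside the gate, with or without Trav22, 29.8% (WT) and 36.7% (CKO) had Trdc and 4.35% and 4.25% had Trac. The row was named after its values were seen, and its neighbours in the annotation and the strand of the reads were not examined.

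**Figure D5:**
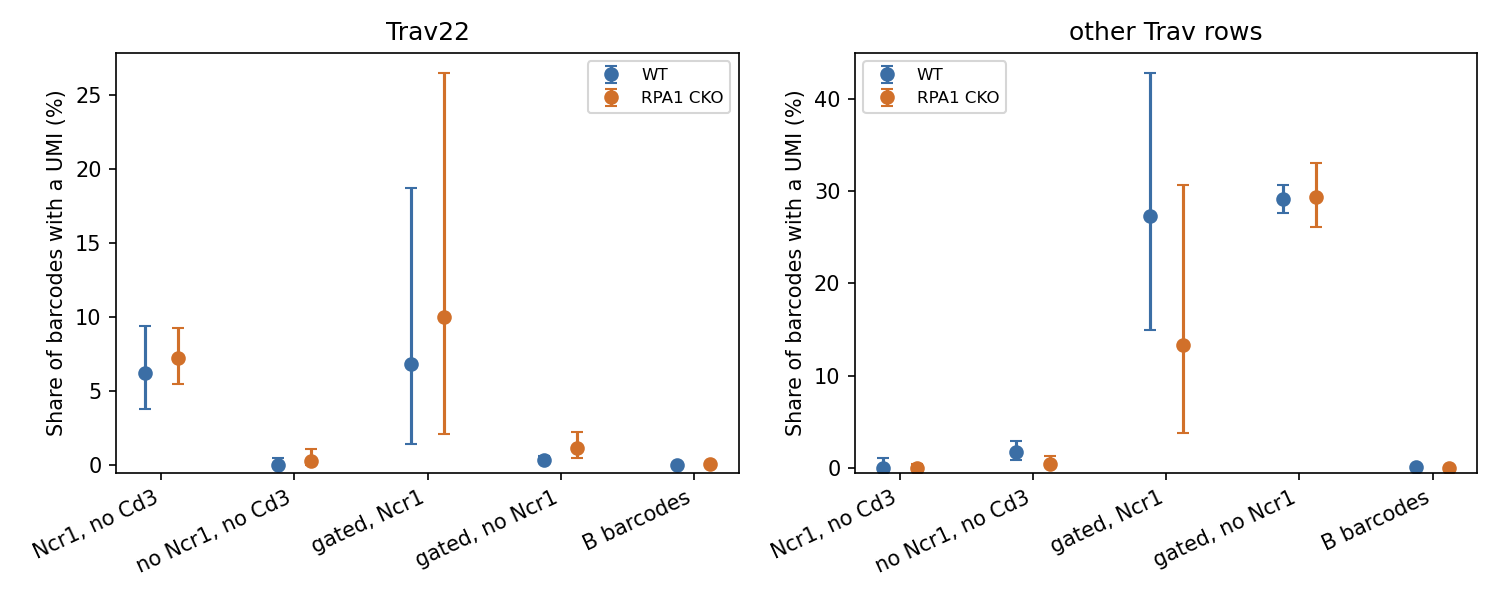
Share of barcodes with a UMI (y axis, %) of the pseudogene Trav22 (left) and of all other Trav rows together (right), in barcodes split by the gate and by Ncr1 and in B cell barcodes, for both libraries; bars are exact 95% binomial intervals. Trav22 is at 6.21% and 7.22% in Ncr1 barcodes without Cd3, where the other Trav rows are at 0.

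Other genes of the receptor and of V(D)J joining were read from a list of 23 genes, of which 19 had at least 20 UMIs in each class. In the Cd4 class 1 was higher and 0 were lower in CKO by 1.5-fold, which is 5.26% higher beside 8.41% of all genes, with a median log2 ratio of -0.04 against 0.03. The gene was Dntt, which encodes the polymerase that adds bases at the joins, with 14 UMIs in 10 CKO and 15 UMIs in 12 WT barcodes, 7.17 against 1.66 CPM, a ratio of 4.33 (1.94 to 9.62). Among Cd8b1 barcodes 4 were higher (Dntt, Xrcc4, Lig4 and Bcl2l1) and 0 lower, 21.1% and 0% of the list beside 12.5% and 11.9% of all genes. Of genes in the V rows' range of UMIs, 28.2% were higher and 29.7% lower. Dntt and Lig4 lie in that range, Xrcc4 and Bcl2l1 above it. Dntt in the Cd8b1 class was at 14.9 times the WT level with 12 of its 18 CKO UMIs in 1 barcode.

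Xrcc4, an end-joining factor, was at 51.4 CPM in CKO and 25.5 CPM in WT Cd8b1 barcodes, a ratio of 2.01 (1.44 to 2.76). Bcl2l1, which encodes the survival protein Bcl-xL, was at 22.9 and 8.02 CPM, a ratio of 2.86 (1.68 to 4.68). Lig4, the ligase of the same joining step, was at 1.57 with an interval from 0.546 to 3.73. Rag1, which encodes a subunit of the enzyme that cuts the segments, had 8 UMIs in 2 CKO Cd8b1 barcodes and none in WT, and Rag2 had none in either class of either library. Of these 2 classes, Cd8b1 had the larger CKO to WT differences in Hbb-bs and Trdc, and their part in these ratios was not tested.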

How the data were processed

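The deposited matrices hold the authors' raw UMI counts, which are whole numbers. Build mm10 is named in the submitters' processing notes together with Seurat 4.0.3 and Cell Ranger 5.0.0; the matrix headers give cellranger 6.0.2 instead. Each genotype is 1 library, so no test was made. Shares carry exact Clopper-Pearson, levels exact Poisson, ratios exact conditional binomial and share differences Newcombe 95% intervals, and a count of 0 was bounded with 3 counts. CPM was taken over the summed UMIs of a class, with a pseudocount of 1 CPM in medians of log2 ratios. Members were called at 1.5-fold with at least 20 UMIs over both arms. Uniqueness is the share of 50-base stretches of a row's transcripts found in no transcript of any other gene.

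All 163 row identifiers matched GENCODE M21, from which order, biotype and sequences were taken. No clustering or doublet caller was used, and doublets were kept unless a Cd79a UMI excluded them. Rows named were the 8 most frequent per locus, rows beyond 1.5-fold with intervals clear of 1, invariant-pair rows, rows of the 3 most common pairs and dv rows. Others are said to be chosen after their values were seen. The members and lists were chosen with earlier results of these data known. Alternatives were a stricter gate, barcode filters, thinning, a call at 2 UMIs, removal of Trdc or other-lineage barcodes, other minimums, scaling and grouping. After the data were seen, removal of Hbb-bs barcodes, of the Trav22 or Trav14d-3-dv8 row and counting barcodes were added. The summed level of 1 marker list is not reported here. The calculations were tested on simulated data. Software was pandas 2.3.3, scipy 1.17.1, numpy 2.4.6 and matplotlib 3.10.9 under Python 3.11.15.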

Additional observations from a re-analysis of the deposited data

Results flagged for a closer look

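The CKO over WT ratio of Trbv19 was 0.364 in the Cd4 class and 3.14 in the Cd8b1 class, opposite directions in the 2 classes; with 1 library per genotype the difference was not tested. Data outside the gate held Trav22 UMIs in 6.21% of WT and 7.22% of CKO barcodes with Ncr1 and no Cd3d, Cd3e or Cd79a UMI, above the limit that a count of 0 allows. Other Trav rows were seen in 1.71% of WT barcodes with none of these UMIs and no Ncr1 UMI, also above that limit.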

How the results depend on the processing

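No paired analysis was possible because each genotype is 1 library. The proximal Trav difference kept its direction under 11 alternatives, ranging from 9.96 to 20.4 points in all gated barcodes, from 11.6 to 19.0 in the Cd4 class and from 10.0 to 21.7 in the Cd8b1 class. Intervals reached 0 in the Cd4 class with a call at 2 UMIs (-0.00335 to 31.7) or thinning (-6.74 to 29.4), and in the Cd8b1 class under 6 of them. The Cd4 Trav share difference was 0.974 points with a call at 2 UMIs and -0.735 after thinning to 1000 UMIs, where the level ratio was 0.923. Other CKO over WT level ratios moved after thinning to 1.48 (Trav) and 1.45 (Trbv) in the Cd8b1 class, with a call at 2 UMIs to 0.541 (Trbv, Cd4) and 0.623 (Trbv, Cd8b1), and without other-lineage barcodes to 1.06 (Trbv, Cd4).

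With a call at 2 UMIs the effective number was 32.9 (Trav, WT), 11.9 (Trbv, CKO) and 7.45 (Trbv, WT). Counted by subgroups it was 11.3 and 11 for Trav (CKO, WT) and 8.65 and 9.39 for Trbv, and after thinning 27.5 for Trav in CKO. Barcodes with 2 or more Trav subgroups were 3.77% (CKO) and 3.58% (WT) with a call at 2 UMIs and 2.17% and 1.36% after thinning. Barcodes with 2 or more Trbv rows were 0% and 2.43%, and 2.27% and 1.08%.

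In the Cd4 class, members higher in CKO numbered 0 at a minimum of 50 UMIs, 29 with none, 3 with a call at 2 UMIs or without Trdc barcodes and 1 without each row's top barcode. Members lower numbered 2, 35 and 4 under the first 3 of these, 4 counting barcodes and 2 without other-lineage barcodes. In the Cd8b1 class, higher members numbered 1, 20 and 1, with 4 without other-lineage barcodes or without top barcodes. Lower members numbered 2, 64 and 2, with 5 without other-lineage barcodes. Between WT classes, higher members numbered 0 at a minimum of 50 UMIs, 27 with none and 6 without other-lineage barcodes. Lower members numbered 9, 43 and 9, and 9 with a call at 2 UMIs. Thinned to 1000 UMIs, no row kept 20 UMIs in any comparison. The Trav14-1 ratio was 0.730 with the gate at 4 UMIs and 0.843 without its top barcode. The causes of these shifts were not tested. Depth limits every row of the CKO Cd8b1 class, which held 122 barcodes.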
